A study of Homo sapiens with 28 samples.

Results

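KLK2, KLK3, KLK4 and KLK15 are 4 kallikrein genes that lie close together on chromosome 19 and are known for their expression in the prostate. They were taken by gene symbol from a table of 61815 human genes, in which each symbol had 1 row. Each of the 4 passed the filter on low counts in both experiments, KLK15 only through its androgen-treated libraries. RNA was sequenced in LNCaP, an established androgen-responsive human prostate cancer line, grown in charcoal-stripped serum, which lacks most steroids, for 72 h before treatment and throughout. In the 24 h experiment, cells received the vehicle (0.1% DMSO), 1 µM Senexin B, 0.1 nM R1881 or R1881 with Senexin B, with 3 libraries per group. In the 72 h experiment, they received the vehicle, 500 nM SNX631, 1 nM R1881 or R1881 with SNX631, with 4 libraries per group. R1881 is a synthetic androgen, and Senexin B and SNX631 inhibit the Mediator kinases CDK8 and CDK19. The doses are those of the labels, and the text of the study gives another dose of Senexin B. Time, androgen dose, inhibitor and experiment all change together between the experiments and cannot be told apart, so the inhibitors are set side by side and not compared with each other.

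Kallikreins are secreted serine proteases made as inactive precursors. KLK3 encodes prostate-specific antigen (PSA), which liquefies semen by cutting semenogelins, and KLK2 encodes a trypsin-like relative that can cut the PSA precursor. KLK4 encodes another trypsin-like protease, best known for removing matrix proteins from maturing tooth enamel, and KLK15 encodes a less studied member of the same family. Androgen response elements in DNA are built of paired half-sites, and the start region and a far upstream enhancer of KLK3 are textbook examples of places that hold them.

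KLK15 (ENSG00000174562.14) occupies chromosome 19 from 50825289 to 50837213 on the minus strand in GENCODE 29 (GRCh38). KLK3 (ENSG00000142515.16) runs from 50854915 to 50860764 on the plus strand, and KLK2 (ENSG00000167751.13) follows it from 50861568 to 50880567 on the same strand. The pseudogene KLKP1 (ENSG00000197588.9) lies next on the minus strand from 50882096 to 50896398, and KLK4 (ENSG00000167749.12) lies beyond it on the minus strand from 50906352 to 50910738. Measured between RefSeq start sites, KLK2 starts at 18.5 kb and KLK4 at 56.5 kb from KLK3, and KLK15 starts at -21.3 kb, on the other side.

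The 250 bases before each RefSeq start site (GRCh38.p14) are shown for the 4 genes. All 4 rose with R1881, but KLK2 and KLK3 alone were called lower when an inhibitor was added to it. Whether these windows bear on those changes was not tested. Each is written 5′ to 3′ along its gene, and capitals mark a match to the androgen response element palindrome, the half-sites AGAACA and TGTTCT with 3 bases between them, with at most 3 mismatches at its 12 fixed positions.
KLK3, chr19:50854665-50854914, plus strand: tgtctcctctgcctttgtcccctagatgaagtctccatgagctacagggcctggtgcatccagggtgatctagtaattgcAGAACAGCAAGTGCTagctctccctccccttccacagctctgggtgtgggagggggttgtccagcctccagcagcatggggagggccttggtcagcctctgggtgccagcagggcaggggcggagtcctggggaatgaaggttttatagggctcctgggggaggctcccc
KLK2, chr19:50873189-50873438, plus strand: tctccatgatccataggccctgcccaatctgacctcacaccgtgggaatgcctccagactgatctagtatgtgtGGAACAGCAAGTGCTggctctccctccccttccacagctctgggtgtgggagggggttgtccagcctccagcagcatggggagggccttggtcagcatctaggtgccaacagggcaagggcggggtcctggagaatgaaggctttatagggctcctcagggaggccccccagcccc
KLK4, chr19:50911396-50911645, minus strand: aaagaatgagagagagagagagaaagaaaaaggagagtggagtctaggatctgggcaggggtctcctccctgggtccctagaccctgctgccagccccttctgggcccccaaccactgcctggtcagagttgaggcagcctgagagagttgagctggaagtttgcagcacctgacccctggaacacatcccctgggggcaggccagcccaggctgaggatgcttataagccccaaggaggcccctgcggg
KLK15, chr19:50833575-50833824, minus strand: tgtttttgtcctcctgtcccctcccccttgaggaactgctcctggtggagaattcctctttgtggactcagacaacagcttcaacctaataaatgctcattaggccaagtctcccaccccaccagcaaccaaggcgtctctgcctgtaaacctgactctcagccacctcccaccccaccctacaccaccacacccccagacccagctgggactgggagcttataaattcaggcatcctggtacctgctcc

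The match in KLK3 lay from -170 to -156 relative to the start site and had 2 mismatches. The match in KLK2 lay from -176 to -162 and had 3. Of 35116 RefSeq promoters of the same length, 9.17% held a match with up to 3 mismatches and 1.18% a match with up to 2. The 6-letter half-site itself, in either orientation, was present in KLK3 and in 12.4% of all promoters, and in none of the other 3 windows. The letters TATAAA, on either strand, stood at -28 to -23 in KLK3, at -34 to -29 in KLK2 and at -30 to -25 in KLK15, and in 10.7% of all promoters. The windows of KLK4 and KLK15, including a second RefSeq start site of each gene, held no match to the palindrome, which says nothing of sites elsewhere. The KLK2 and KLK3 windows were identical in 205 of 262 aligned positions (78.2%), with 80 identical bases in a row, whereas the other 5 pairs shared from 44.4 to 49.3%.

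Total counts ranged from 9846595 to 33809419 per library. That maximum came from replicate 3 of vehicle at 24 h, and no other library exceeded 15248512. The design text describes the replicates as biological. Every replicate pair differed by more than sampling noise, which does not show how separate the cultures were. The common coefficient of variation between replicates, as estimated by edgeR beyond sampling noise, was 2.72% at 24 h and 2.38% at 72 h. The SEs, intervals and FDRs below rest on the spread among libraries within an experiment. The luminal markers KRT8, KRT18, EPCAM, HOXB13 and FOXA1 were between 159 and 1010 CPM (counts scaled to library size with TMM factors) in every library. The basal markers KRT5, KRT14 and TP63, the neuroendocrine marker CHGA, the stromal marker DCN and the immune marker PTPRC did not exceed 0.44 CPM. SYP did not exceed 1.16 CPM, and COL1A1, a collagen also listed as a stromal marker, ranged from 7.34 to 31.4 CPM. KRT8 and KRT18 were called higher with R1881 at 72 h (log2 0.75 and 0.86), and COL1A1 was called lower with the inhibitor in both experiments, with R1881 (log2 -0.85 in each) and without it (log2 -1.05 and -0.62). It was also called lower with R1881 alone at 24 h (log2 -0.67) and with R1881 under SNX631 at 72 h (log2 -0.70). SYP was called lower when SNX631 was added to R1881 (log2 -1.08). The part of these markers in the results was not tested.

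The first question was how strongly androgen raised each of the 4 genes. All 4 were called higher with R1881 in both experiments, but by very different amounts. A gene was called at an edgeR false discovery rate (FDR) under 0.01 and a fold change over 1.5, limits that 19% of the genes tested passed at 24 h and 19.8% at 72 h. KLK2 rose 177-fold (95% interval 135 to 232) at 24 h and 175-fold (139 to 220) at 72 h. KLK3 rose 70.9-fold (58.1 to 86.6) and 95.1-fold (73.7 to 123). KLK4 rose 10.2-fold (9.38 to 11.1) and 10.3-fold (9.41 to 11.2), and KLK15 rose 6.52-fold (4.08 to 10.4) and 6.91-fold (3.93 to 12.2). In bulk RNA, a change in RNA per cell cannot be told apart from a change in the share of cells that express a gene.

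KLK4 started from the highest level. With vehicle it stood at 15.5, 12.1 and 14.6 CPM at 24 h and at 15.7, 12.6, 14.1 and 13.7 CPM at 72 h. With R1881 it stood at 147, 141 and 146 CPM at 24 h and at 144, 140, 140 and 151 CPM at 72 h. The R1881 libraries of both experiments thus covered the narrow span of 140 to 151 CPM, far above every vehicle library. The log2 change was 3.35 ± 0.06 (SE, edgeR FDR 9.05e-31) at 24 h and 3.36 ± 0.06 (SE, edgeR FDR 1.1e-36) at 72 h.

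KLK2 was low without androgen. With vehicle it stood at 1.69, 0.916 and 1.14 CPM at 24 h and at 1.82, 1.98, 2.06 and 1.87 CPM at 72 h. With R1881 it stood at 221, 205 and 207 CPM at 24 h and at 334, 343, 330 and 353 CPM at 72 h. The groups did not overlap, and every 72 h R1881 library was above every 24 h one, a difference between experiments that was not tested. The log2 change was 7.47 ± 0.19 (SE, edgeR FDR 9.22e-34) and 7.45 ± 0.16 (SE, edgeR FDR 2.32e-43).

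KLK3 was likewise low without androgen. With vehicle it stood at 1.12, 1.48 and 1.7 CPM at 24 h and at 1.22, 1.6, 1.54 and 1.4 CPM at 72 h. With R1881 it reached 107, 115 and 109 CPM at 24 h and 130, 134, 147 and 141 CPM at 72 h, again with no overlap between groups.

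KLK15 was a low-count gene throughout. It held between 2 and 13 counts in any library without R1881 and between 16 and 52 with it. It thus passed the filter on low counts only through the groups with R1881, where it was high. Its rise was also called with no such filter. With vehicle it stood at 0.281, 0.564 and 0.369 CPM at 24 h and at 0.782, 0.305, 0.257 and 0.156 CPM at 72 h. With R1881 it stood at 2.48, 2.55 and 2.93 CPM at 24 h and at 1.67, 2.4, 2.85 and 3.33 CPM at 72 h. The vehicle and R1881 libraries did not overlap, and the log2 change was 2.71 ± 0.33 (SE, edgeR FDR 1.87e-09) and 2.79 ± 0.40 (SE, edgeR FDR 2.42e-09). The antisense gene ENSG00000267968 overlaps KLK15, and the use of strand in counting is not given in the sources used here, so reads from the pair cannot be told apart.

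**Figure D1:**
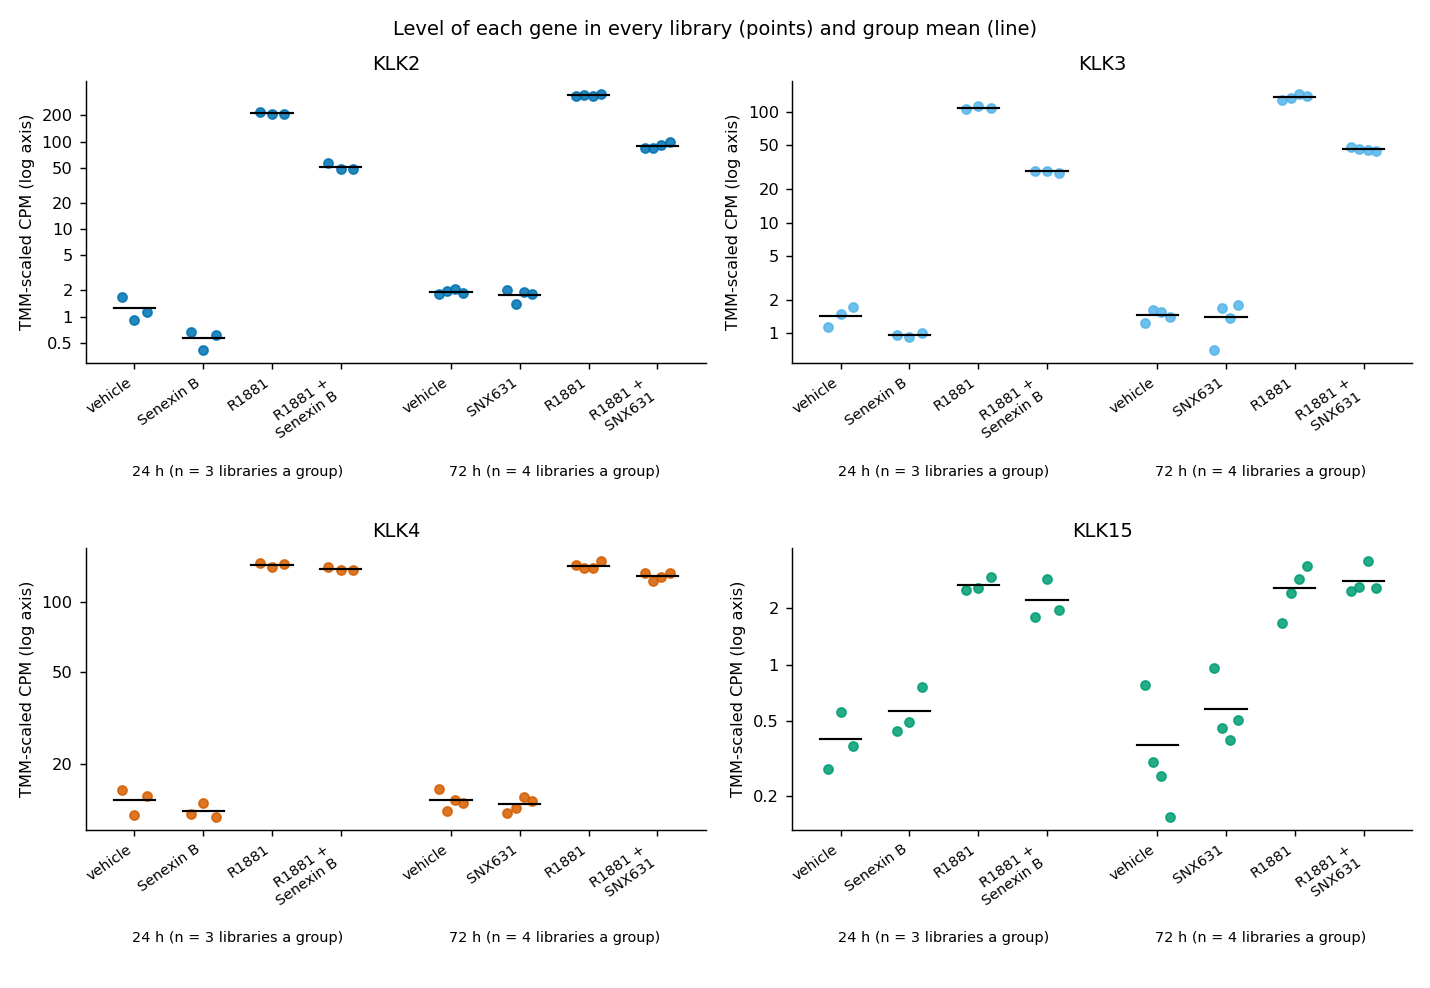
TMM-scaled CPM (log axis) of each gene in every library, with the group mean as a line, for the 4 groups at 24 h (n = 3) and the 4 at 72 h (n = 4). With R1881 all 4 genes sit above the libraries without it; with an inhibitor added, KLK2 and KLK3 drop to between 28.4 and 99.7 CPM while KLK4 stays between 123 and 141 CPM.

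The second question was whether a Mediator kinase inhibitor lowered the androgen-raised levels. Of the 4 genes, 2 were called lower in each experiment, KLK2 and KLK3, against 3.12% of all genes called in either direction with Senexin B at 24 h and 4.11% with SNX631 at 72 h. KLK2 with R1881 and inhibitor was at 24.5% of its level with R1881 alone (95% interval 22.7 to 26.5) at 24 h and at 26.6% (25.2 to 27.9) at 72 h. KLK3 was at 26.3% (24.4 to 28.5) and 33.3% (31.3 to 35.4). KLK4 was at 95.8% (90.4 to 101) and 90% (85.8 to 94.4). KLK15 was at 81.5% (58.7 to 113) and 108% (81 to 145).

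For KLK4, the libraries with R1881 and Senexin B stood at 141, 137 and 138 CPM, just below or level with the lowest library with R1881 alone. The log2 change was -0.06 ± 0.04 (SE, edgeR FDR 0.259). With R1881 and SNX631, KLK4 stood at 133, 123, 128 and 134 CPM, below all 4 libraries with R1881 alone. This drop of 0.15 ± 0.03 on the log2 scale (SE, edgeR FDR 0.000366) passed the FDR limit but not the fold limit, and it kept its sign under every scaling tried.

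For KLK2, the libraries with R1881 and inhibitor stood at 57.8, 49 and 48.3 CPM at 24 h and at 84.2, 84.2, 92.8 and 99.7 CPM at 72 h. KLK3 stood at 29.6, 29.2 and 28.4 CPM at 24 h and at 48.4, 46.1, 45.6 and 44.5 CPM at 72 h. All these libraries were below those with R1881 alone and above those without R1881. The log2 change of KLK2 was -2.03 ± 0.05 (SE, edgeR FDR 1.05e-23) at 24 h and -1.91 ± 0.04 (SE, edgeR FDR 4.89e-32) at 72 h. That of KLK3 was -1.92 ± 0.06 (SE, edgeR FDR 4.44e-23) and -1.59 ± 0.04 (SE, edgeR FDR 4.64e-27).

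For KLK15, the libraries with R1881 and inhibitor stood at 1.78, 2.86 and 1.95 CPM at 24 h and at 2.47, 2.57, 3.57 and 2.56 CPM at 72 h. They overlapped the libraries with R1881 alone in both experiments. The log2 change was -0.29 ± 0.23 (SE, edgeR FDR 0.358) at 24 h and 0.11 ± 0.21 (SE, edgeR FDR 0.692) at 72 h. The lower ends of both intervals lie above the upper ends of those of KLK2 and KLK3, but at this depth a moderate change in either direction was not detectable.

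Even with an inhibitor, androgen raised all 4 genes. The share of all genes called for this contrast was 18.9% at 24 h and 22% at 72 h. Under inhibitor, the rise was 89.8-fold (95% interval 55.5 to 145) and 50.9-fold (40 to 64.9) for KLK2, and 30.2-fold (22.1 to 41.2) and 32.8-fold (25.3 to 42.6) for KLK3. It was 11-fold (9.95 to 12.2) and 9.62-fold (8.8 to 10.5) for KLK4, and 3.78-fold (2.31 to 6.17) and 4.82-fold (3.04 to 7.65) for KLK15.

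Without androgen, no inhibitor effect on the 4 genes was called in the main edgeR fit or by the DESeq2 Wald test, although some alternative fits called KLK2 with Senexin B. The count was 0 of 4 in each experiment by edgeR and by the DESeq2 Wald test, with 2 of 4 at an unadjusted edgeR p under 0.05 at 24 h and 0 of 4 at 72 h, against 3.76 and 4.76% of all genes called. With Senexin B alone, KLK2 stood at 0.663, 0.414 and 0.609 CPM and KLK3 at 0.958, 0.911 and 0.989 CPM, all below the vehicle libraries. The log2 change was -1.05 ± 0.39 (SE, edgeR FDR 0.0226) for KLK2 and -0.69 ± 0.26 (SE, edgeR FDR 0.0317) for KLK3, from libraries of 5 to 60 counts. The KLK2 effect was called with a replicate block (log2 -1.08) and with no filter on low counts (log2 -1.07). KLK4 was at 12.2, 13.6 and 11.9 CPM and KLK15 at 0.442, 0.497 and 0.761 CPM, both overlapping the vehicle group. With SNX631 alone, KLK2 ranged from 1.38 to 2.01 CPM, KLK3 from 0.698 to 1.79, KLK4 from 12.4 to 14.5 and KLK15 from 0.399 to 0.96, each overlapping its vehicle group.

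The interaction asks whether the androgen effect itself differed with and without inhibitor. Over all genes it was called for 0.583% at 24 h and 1.19% at 72 h. KLK3 was called in both experiments, at -1.23 ± 0.26 (SE, edgeR FDR 0.00627) and -1.53 ± 0.26 (SE, edgeR FDR 6.36e-05) on the log2 scale. KLK2 was called at 72 h (-1.78 ± 0.24, SE, edgeR FDR 1.55e-06) but not at 24 h (-0.98 ± 0.39, SE, edgeR FDR 0.213). KLK4 had an interaction of 0.11 (95% interval -0.08 to 0.30) at 24 h and -0.09 (-0.27 to 0.09) at 72 h. KLK15 had one of -0.79 (-1.77 to 0.19) and -0.52 (-1.57 to 0.53). The KLK3 call at 24 h was lost without vehicle replicate 1 or 2, without any 1 of the 3 Senexin B libraries, or without replicate 3 of R1881 with Senexin B, with an FDR from 0.0104 to 0.039 and a log2 value from -1.28 to -1.16.

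**Figure D2:**
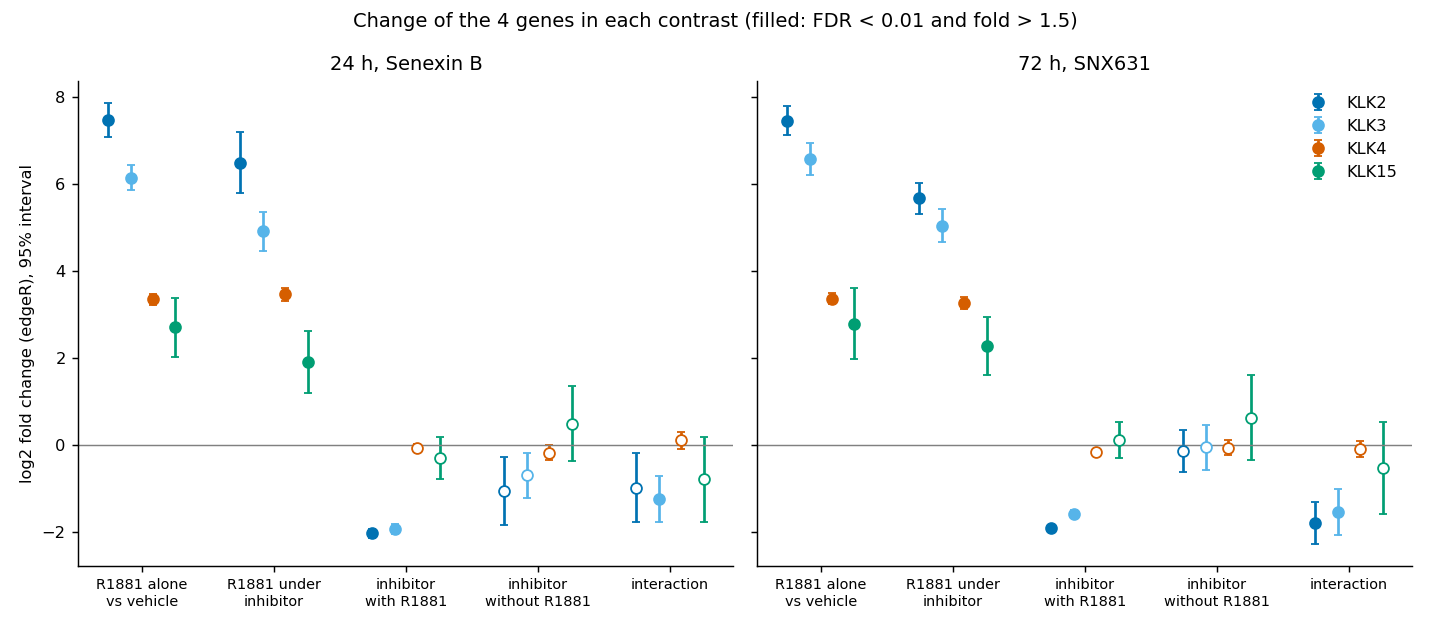
The log2 fold change of each gene in 5 contrasts, at 24 h with Senexin B and at 72 h with SNX631, with 95% intervals from the edgeR fit and filled points for called changes. With R1881 present, the inhibitor moves KLK2 and KLK3 to between -2.03 and -1.59, while KLK4 and KLK15 stay between -0.29 and 0.11.

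Setting the neighbors against KLK3 and KLK2 within each library removes the scaling of the libraries, and 5 gene pairs were compared in this way as log2 ratios of counts (0.5 added to each). Under R1881 alone, the KLK4/KLK3 ratio was 0.39 ± 0.09 at 24 h (SD, n = 3) and 0.06 ± 0.09 at 72 h (SD, n = 4). With the inhibitor added it rose to 2.25 ± 0.02 and 1.49 ± 0.07, a difference of 1.86 and 1.43. The KLK15/KLK3 ratio rose by 1.62 and 1.73, the KLK4/KLK2 ratio by 1.97 and 1.77 and the KLK15/KLK2 ratio by 1.73 and 2.06. For these 4 pairs the groups did not overlap in either experiment. A 2-sided exact permutation test gave p = 0.1 for each at 24 h and p = 0.0286 at 72 h, the smallest values that 3 against 3 and 4 against 4 libraries allow. Adjusted over the 10 tests of the contrast, these became 0.111 and 0.0714, so they failed the 0.05 limit. In 1 exact permutation test over both experiments, with labels permuted within each and the differences with Senexin B and with SNX631 averaged, these 4 pairs had mean differences of 1.65 to 1.90 (p = 0.00143, adjusted p = 0.00179 over 5 pairs), a test added after the data had been seen. That unadjusted p is again the smallest possible, here with 1400 splits.

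KLK2 and KLK3 kept a closer ratio to each other. With R1881 alone, the KLK2/KLK3 ratio was 0.94 ± 0.11 at 24 h (SD, n = 3) and 1.30 ± 0.09 at 72 h (SD, n = 4). With the inhibitor it was 0.83 ± 0.12 and 0.97 ± 0.16, and the groups overlapped in both experiments. The exact permutation p was 0.3 at 24 h and 0.0571 at 72 h (adjusted 0.3 and 0.111). Over both experiments the mean difference was -0.22 (exact permutation p = 0.0114).

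R1881 itself reordered the genes. Against vehicle, the KLK2/KLK3 ratio rose by 1.16 at 24 h and by 0.88 at 72 h. The other 4 ratios fell, with differences of -2.88 and -3.19 for KLK4/KLK3, -3.58 and -3.73 for KLK15/KLK3, -4.04 and -4.07 for KLK4/KLK2, and -4.74 and -4.61 for KLK15/KLK2. No pair overlapped between groups in either experiment, with an exact permutation p of 0.1 at 24 h and 0.0286 at 72 h for every pair (adjusted 0.1 and 0.0571).

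**Figure D3:**
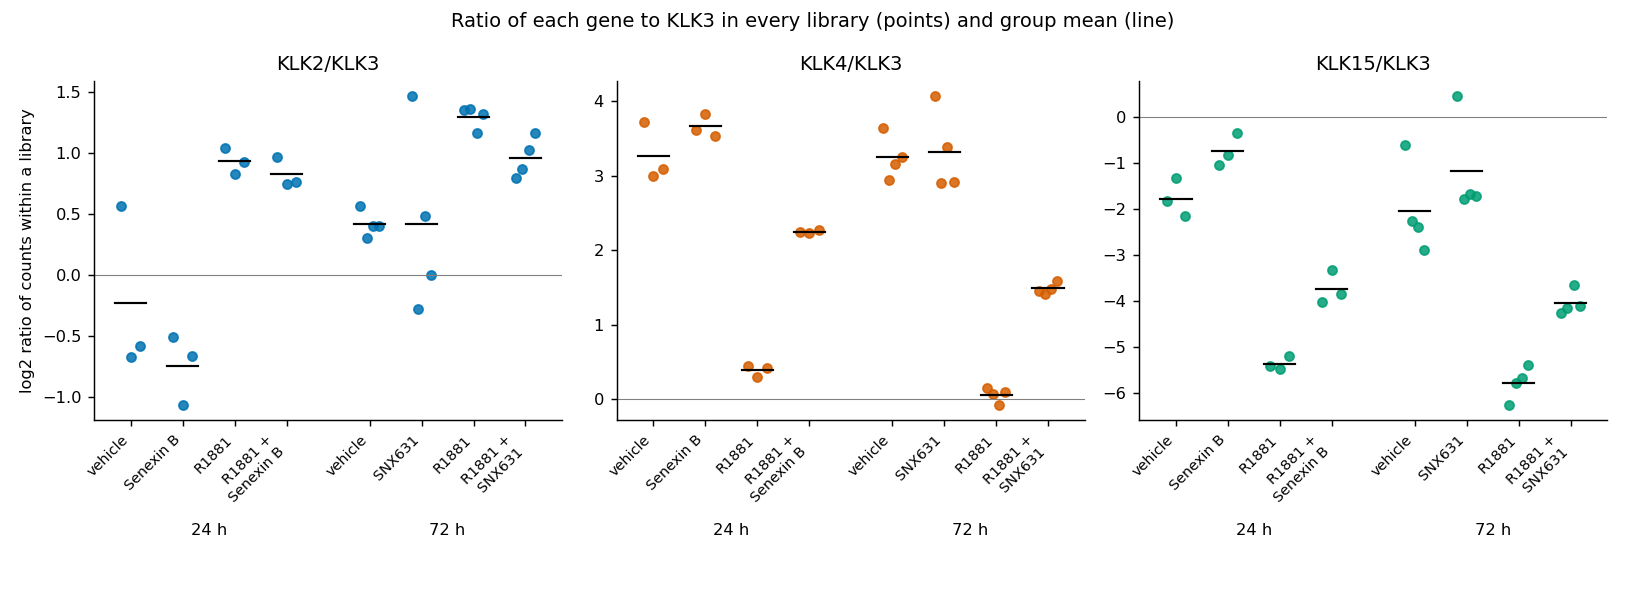
The log2 ratio of the counts of KLK2, KLK4 and KLK15 to those of KLK3 within each library (points), with the group mean as a line, at 24 h (n = 3) and 72 h (n = 4). The KLK4/KLK3 ratio lies between -0.07 and 0.45 with R1881 alone and between 1.42 and 2.28 once the inhibitor is added.

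The same counts can be written as the share each gene took of the sum of the 4 genes, a measure not corrected for length. These shares restate the ratios and are no separate result. A share rises when the other genes fall, and KLK4 itself did not rise with the inhibitor added. With vehicle, KLK4 took 80.3 to 83.3% of these counts at 24 h and 76.4 to 80.4% at 72 h. With R1881 its share was 30.4 to 31.4% and 22.6 to 23.7%, and with R1881 and inhibitor it was 61.2 to 63.7% and 47.4 to 49.6%. The KLK2 share was 6.09 to 9.11% and 9.33 to 12% with vehicle, 44.2 to 46.3% and 53.2 to 55.4% with R1881, and 22.3 to 25.2% and 31.4 to 35.5% with both. The KLK3 share was 22.4 to 24.8% and 21.4 to 23.7% with R1881 and 12.9 to 13.4% and 15.8 to 18% with both. KLK15 never exceeded 5.98% in any library.

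**Figure D4:**
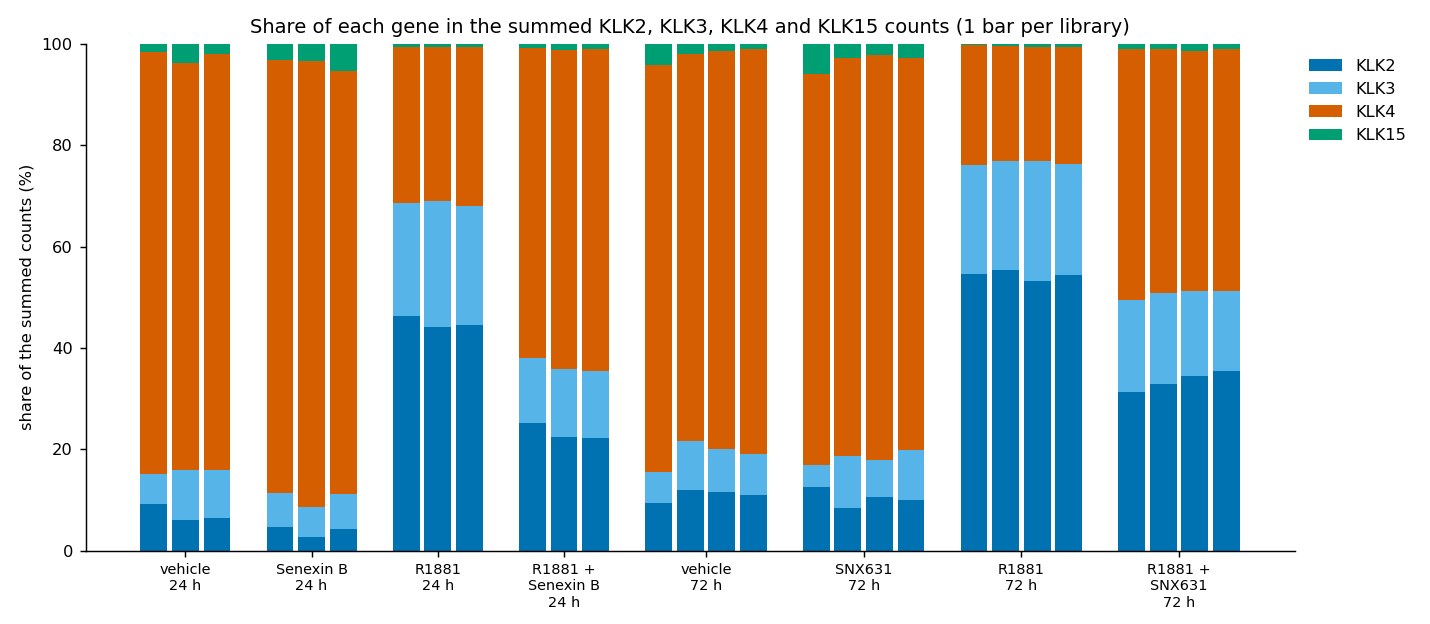
Share (%) of each gene in the summed counts of KLK2, KLK3, KLK4 and KLK15, with 1 bar per library grouped by treatment and time. The KLK4 share is 76.4 to 83.3% with vehicle, 22.6 to 31.4% with R1881 and 47.4 to 63.7% with R1881 and inhibitor.

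Per kilobase of annotated exon, KLK4 had the highest level of the 4 in every group when all annotated exons were counted. With vehicle it stood at 7.27 ± 0.90 CPM per kb at 24 h (SD, n = 3), against 0.31 ± 0.06 for KLK3, 0.195 ± 0.06 for KLK2 and 0.177 ± 0.06 for KLK15, of which the last 2 did not differ beyond their spread. With R1881 at 24 h the order was KLK4 at 74.7 ± 1.62, KLK2 at 33 ± 1.38, KLK3 at 23.8 ± 0.90 and KLK15 at 1.16 ± 0.11 CPM per kb (SD, n = 3). At 72 h it was the same, at 74.4 ± 2.59, 53.2 ± 1.62, 29.8 ± 1.64 and 1.12 ± 0.31 CPM per kb (SD, n = 4). With R1881 and SNX631 the values were 66.9 ± 2.59, 14.1 ± 1.18, 9.94 ± 0.35 and 1.22 ± 0.23 CPM per kb (SD, n = 4). The order of the first 2 depends on the exons counted: with the basic transcript set, chosen as an alternative after the data had been seen, KLK2 was at 111 and KLK4 at 107 CPM per kb with R1881 at 72 h.

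Some reads could have been shared between these genes. The table holds fractional counts, and KLK4 had one in 21 of 28 libraries, KLKP1 in 22, KLK2 and KLK3 in 4 each and KLK15 in none. The 4 libraries were the same for KLK2 and KLK3. KLK4 and KLKP1 had fractions in the same libraries, apart from replicate 1 of R1881 with Senexin B. There KLK4 held 1663 counts and KLKP1 166.5. Whether KLK4 shared reads with KLKP1 or with another gene was not tested. The longest annotated principal transcripts of KLK2 and KLK3 were 78% identical over 1524 aligned positions, with at most 60 identical bases in a row. For the other pairs of members the longest identical run was 14 bases or fewer.

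The pseudogene KLKP1, between KLK2 and KLK4, was called, like KLK4, with R1881 but not with the inhibitors. The likeness is one of calls only. With SNX631 added to R1881 at 72 h, KLK4 fell and KLKP1 rose, each past the FDR limit but not the fold limit. Because the fractional counts of KLKP1 fell in nearly the same libraries as those of KLK4, reads shared between them could affect the values of both, which was not tested. It stood at 0.187, 0.423 and 0.682 CPM with vehicle and at 12.9, 13.6 and 12.4 CPM with R1881 at 24 h. At 72 h it stood at 0.174, 0.762, 0.771 and 0.545 CPM with vehicle and at 11.7, 11.7, 12.2 and 10.2 CPM with R1881. R1881 raised it 24.1-fold (95% interval 15.7 to 36.9) and 19.8-fold (13.6 to 28.6). Like KLK15, it passed the filter on low counts only through the groups with R1881. Adding the inhibitor left it at 95.4% (80 to 114; edgeR FDR 0.726) at 24 h and at 123% (109 to 139; edgeR FDR 0.00545) at 72 h, neither of which was called. At 72 h its libraries with R1881 and SNX631 stood at 13.7, 14.6, 13.4 and 14.4 CPM, above all those with R1881 alone.

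Of the other 11 kallikrein genes, KLK14 passed the filter on low counts and was called in no contrast, with a log2 change of -0.59 at 24 h and -0.73 at 72 h with R1881 (edgeR FDR 0.139 and 0.0408). The other 10 held at most 3 counts in any library, and KLK8, KLK9 and KLK13 held 0 in all 28.

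Besides the 4 members, 76 genes, KLKP1 and KLK14 among them, overlap the 500 kb on either side of KLK3, and 18 of them were tested in each experiment. R1881 alone gave 5 called higher and 3 lower at 24 h and 5 higher and 1 lower at 72 h, read against 19 and 19.8% of all genes. The calls in both experiments included KLKP1, SNORD88B, which lies within C19orf48, and ENSG00000142539, which overlaps POLD1, so they are not all separate neighbors. C19orf48, with its start at -50 kb from that of KLK3, was among the called genes nearest to the cluster, and R1881 raised it 5.96-fold (log2 2.58 ± 0.04, SE, edgeR FDR 8.85e-31) and 4.92-fold (log2 2.30 ± 0.03, SE, edgeR FDR 7.46e-38). With the inhibitor it was at 96.6% (edgeR FDR 0.301) and 101% (edgeR FDR 0.843) of its level with R1881 alone. POLD1, the catalytic subunit of DNA polymerase delta, with its start at -470.6 kb, rose 2.43-fold and 1.78-fold with R1881. Adding an inhibitor to R1881 gave 0 calls among the 18 in each experiment by edgeR and by the DESeq2 Wald test, with 8 and 7 at an unadjusted edgeR p under 0.05. Among 18 genes, 0 calls is close to the background shares of 3.12 and 4.11%.

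**Figure D5:**
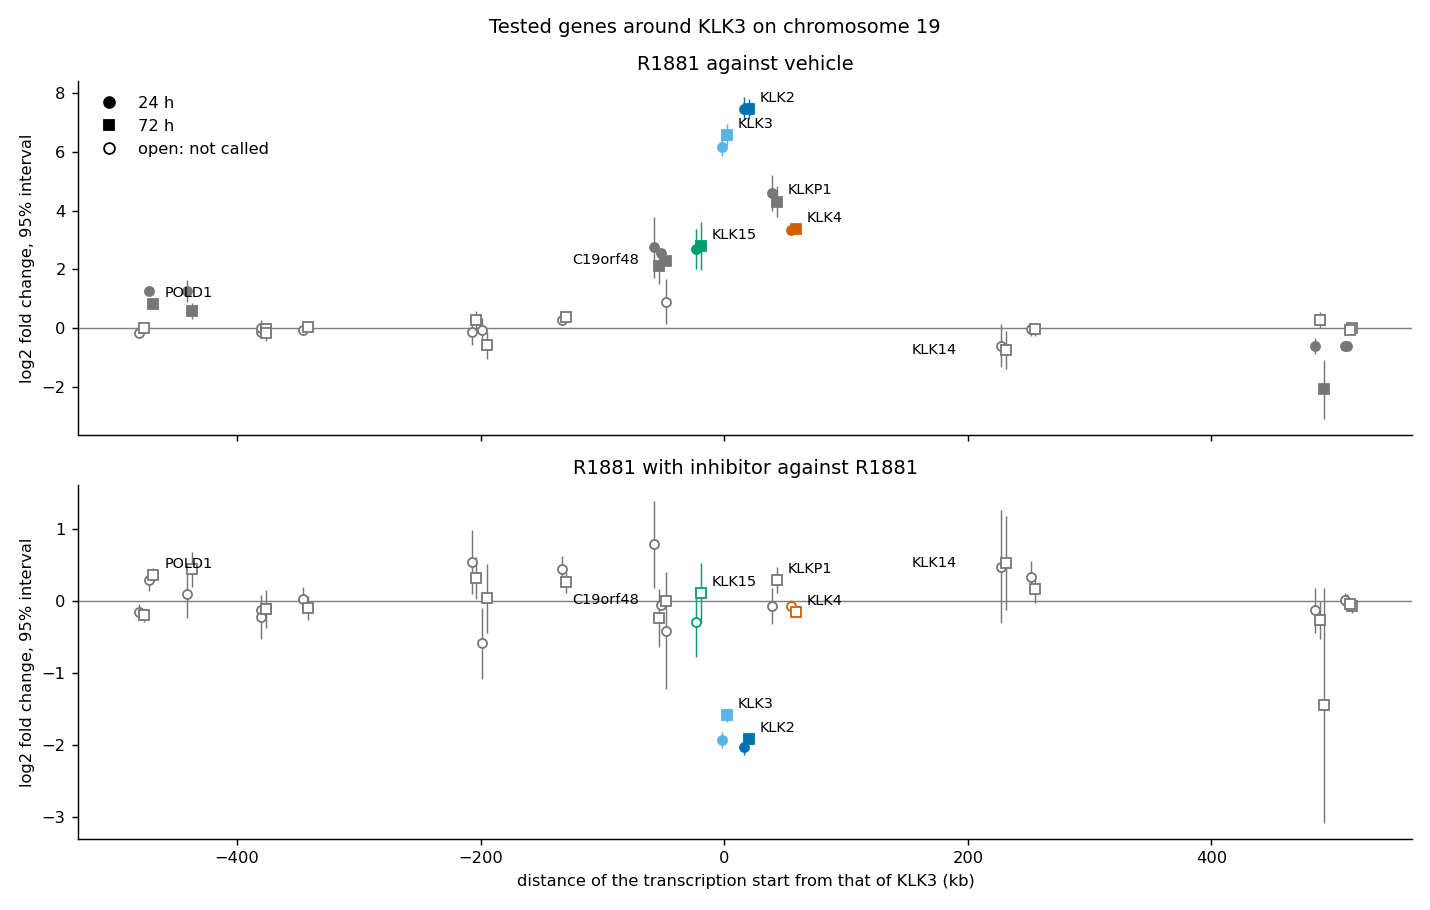
The log2 fold change, with 95% interval, of each tested gene around KLK3 against the distance of its start from the KLK3 start (kb), for R1881 against vehicle and for R1881 with inhibitor against R1881, at 24 h (circles) and 72 h (squares), with filled symbols for called changes. C19orf48, KLK15, KLK3, KLK2, KLKP1 and KLK4 rise with R1881, and of all genes drawn KLK2 and KLK3 are called lower with the inhibitor.

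The kallikreins' known partners were examined as lists chosen with earlier results known. Of 13 substrates and targets, 6 were tested, and R1881 raised 1 and lowered 1 at 24 h and raised 1 and lowered 2 at 72 h (33.3% and 50% called, against 19% and 19.8% of all genes). The median log2 change of the 6 was -0.27 and -0.05, against -0.02 and -0.01 over all genes tested. FN1, fibronectin, was at 49.9% and 56.6% of its vehicle level with R1881, and the inhibitor raised it to 167% and 160% of its level with R1881 alone (edgeR FDR 1.11e-11 and 7.11e-17), the opposite direction to KLK2 and KLK3. The FN1 interaction at 24 h was 0.28 on the log2 scale (95% interval 0.12 to 0.43, edgeR FDR 0.0266) and was not called. The rise with Senexin B was thus not shown to depend on R1881. F2RL1, the protease-activated receptor PAR2, rose 2.21-fold and 2.43-fold with R1881 and was at 98.4% and 106% with the inhibitor, neither called. The semenogelins, the main seminal substrates, did not pass the filter. Of 12 protease inhibitors, 4 were tested at 24 h and 3 at 72 h. None was called with R1881 by edgeR or by the DESeq2 Wald test, with 3 and 0 at an unadjusted edgeR p under 0.05. With so few members, 0 calls is close to the 19% and 19.8% of all genes.

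Of 11 other secretory genes of the prostate, 4 were tested at 24 h and 5 at 72 h. R1881 raised 1 and lowered 2 at 24 h and raised 1 and lowered 1 at 72 h (75% and 40% called, against 19% and 19.8% of all genes, from few members). AZGP1, zinc-alpha-2-glycoprotein, rose 8.75-fold and 6.73-fold with R1881 and was at 104% and 114% with the inhibitor, neither called. ACP3, prostatic acid phosphatase, went the other way, to 42.6% and 28.2% of its vehicle level. With the inhibitor, ACP3 was at 69.5% and 77.5% of its level with R1881 alone, both short of the fold limit and so not called. Its interaction at 24 h was 0.11 on the log2 scale (95% interval -0.11 to 0.33, edgeR FDR 0.686). Without R1881, the inhibitor lowered 1 of the tested secretory genes in each experiment (25% and 20% called, against 3.76% and 4.76% of all genes).

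Across the 28 libraries, log2 CPM of KLK2 and KLK3 had a Pearson r of 0.991, KLK4 had r of 0.972 and 0.975 with them, and KLK15 had r between 0.901 and 0.931 with the other 3. These values are a description, since the libraries fall into groups set by R1881. Among 13919 named genes, those most like KLK2 were MTMR9, TRIM36, CHRNA2 (a nicotinic acetylcholine receptor subunit), ACTR3 and CYTH1, with r from 0.988 to 0.993. Among those most like KLK3 were SLC4A4 (a bicarbonate cotransporter), MTMR9, EPN2 and CYTH1, with r from 0.988 to 0.991. MTMR9 and CYTH1 were on both lists. The 5 most like KLK4 were HOMER2, C1orf21, FAM174B, TMPRSS2 (a membrane serine protease) and FECH (the last enzyme of heme synthesis), each with r of 0.995, and none was on the lists of KLK2 or KLK3. KLK15 was most like ZNF812P, PRPS1, TTN, PRDX6 and KMT5A, with r from 0.947 to 0.957.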

How the data were processed

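The authors made directional RNA libraries from LNCaP cells and, per the labels and their processing notes, used FastQC, cutadapt 2.8, STAR 2.7.2b and featureCounts of Subread 2.0.3. The notes list the builds GRCh38.p13 and GRCm39, and the use of strand in counting is not given in the sources used here. The deposited values are expected counts per gene, not scaled to depth, of which 16.87% of those above 0 were fractional. They were rounded to whole counts here. Each experiment was fitted alone with edgeR 4.0.16 in R 4.3.3 (quasi-likelihood test, TMM factors, and filterByExpr at min.count 10 and min.total.count 15), with Benjamini-Hochberg adjustment over 15963 genes at 24 h and 16084 at 72 h. SEs are Wald SEs of the same fit, and intervals are 95%. The limits of FDR 0.01 and fold 1.5 are those of the study. CPM used effective library sizes. Pair ratios used the unrounded counts and were tested by exact permutation in scipy 1.17.1. Levels per kb used GENCODE 29 exon unions, with genes matched by identifier without version. Motifs and alignments used RefSeq promoter sequences (GRCh38.p14), GENCODE 29 transcripts and biopython 1.88. Likeness was computed on log2 CPM (prior count 2), over named genes tested in both experiments with a mean of at least 1 CPM in some group. Figures were drawn with matplotlib 3.10.9.

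The 4 genes, the gene lists and the rules were chosen with earlier results of these data known. The genes named are the 4 members, the other kallikreins that passed the filter, for each list up to 4 genes called the same way in both experiments with the largest changes, and the 5 genes most like each member, while some genes that these rules and the marker lists take are not reported here. The alternatives were scaling by DESeq2 size factors or by library totals, the Wald test of DESeq2 1.42.0, no filter on low counts, a replicate block, 1 fit of all 28 libraries, other limits, another pseudocount and leaving out each library. The scripts were tested on simulated data.

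Replicate numbers are shared between groups, but same-numbered libraries did not deviate together (correlation of deviations from the group means -0.0138 to 0.0697 at 24 h and -0.0694 to 0.0715 at 72 h), so libraries were not paired.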

Additional observations from a re-analysis of the deposited data

Results flagged for a closer look

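KLK15 stood at 3.57 CPM in replicate 3 of R1881 with SNX631, while the other 3 libraries of that group lay between 2.47 and 2.57 CPM, a gap that passed the 95% critical value of Dixon's test for 4 samples. This test was applied to 16 sets of values, 1 for each gene in each group of 4 libraries, and chance passes about 1 in 20. Without that library, the log2 change of KLK15 with SNX631 under R1881 was -0.03 instead of 0.11, and neither was called.

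The androgen effect differed with and without inhibitor, by a test of the difference itself, for KLK3 with Senexin B at 24 h (-1.23 on the log2 scale), for KLK3 with SNX631 at 72 h (-1.53) and for KLK2 with SNX631 at 72 h (-1.78).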

How the results depend on the processing

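The R1881 effects of the 4 genes and the inhibitor effects on KLK2 and KLK3 with R1881 kept their direction and their call under every alternative run. Without R1881, the Senexin B effect on KLK2 was called with no filter on low counts (-1.07), with a replicate block (-1.08) and when FDR 0.05 was the sole limit (-1.05). That last limit also called KLK3 with Senexin B without R1881 (-0.69) and KLK4 with SNX631 and R1881 (-0.15). Leaving out each library in turn gave from -1.47 to -1.16 for the KLK3 interaction at 24 h, where 6 of the 12 fits lost the call. It gave from -0.19 to 0.15 for KLK3 with SNX631 without R1881, with the sign reversed without vehicle replicate 2 (0.0057) or SNX631 replicate 1 (0.15). It gave from -0.03 to 0.26 for KLK15 with SNX631 and R1881, reversed without R1881 replicate 1 (-0.02) or R1881 with SNX631 replicate 3 (-0.031). These effects were not called, and the cause was not tested. Testing each pair ratio over both experiments, added after the data had been seen, brought all 10 pair comparisons past the 0.05 limit, since more splits are possible: with R1881, 1.02 for KLK2/KLK3, -3.03 for KLK4/KLK3, -3.65 for KLK15/KLK3, -4.06 for KLK4/KLK2 and -4.68 for KLK15/KLK2, and with the inhibitor added -0.22, 1.65, 1.68, 1.87 and 1.90 in the same order. Within 1 experiment no pair test could pass after adjustment, so its other settings say nothing of stability beyond direction, which none reversed. The replicate block changed no other call. With library totals alone, the 72 h R1881 calls over all genes were 1298 higher and 2116 lower, against 1557 and 1627 with TMM, and the median gene moved to -0.12 on the log2 scale, small beside the changes of the 4 genes. Counting error limits KLK15 and the levels of KLK2 and KLK3 without R1881 most.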
